A study of Mus musculus and Homo sapiens with 43 samples.

Results

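The S100 genes encode small calcium-binding proteins, and 10 of them are described here in a study of leucyl-tRNA synthetase (LARS), the enzyme that joins leucine to its tRNAs. The genes are S100a1, S100a4, S100a6, S100a8, S100a9, S100a10, S100a11, S100a13, S100a14 and S100a16, found by symbol among 30189 symbols of 3 mouse tables. All 10 had a row in the polysome and RiboTag tables, and 7 had a row in the translational efficiency table, which held no row for S100a9, S100a14 or S100a16. The genes were chosen by symbol, with their deposited log2 changes and p-values in these 3 tables known, so their values are descriptions, and the authors' p-values are given as deposited without drawing support from them.

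S100 proteins are dimers of short chains with EF-hand loops, and on binding calcium most of them expose a surface that grips a partner protein. S100a4, S100a6, S100a10 and S100a11 act mainly inside cells, on myosin, on the calcyclin-binding protein and on annexins, and S100a4 is known for its link to tumor cell motility and metastasis. S100a8 and S100a9 form calprotectin, which neutrophils and monocytes store and release, which sequesters metals and which signals through Tlr4 and Ager.

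The 4T07 cells are a mouse mammary carcinoma line. They carried a control hairpin (shCtrl) or 1 of 2 hairpins against Lars (shLars3, shLars4). Polysome profiling sorted their mRNA into a low fraction with 1 to 2 ribosomes and a high fraction with 3 or more, in 18 libraries with 3 per hairpin and fraction. RNA-Seq had 2 libraries for each of the 3 hairpins, and 1 pooled footprint library had no group label. RiboTag tumors came from C57BL/6J mice. All of them carried the PyMT oncogene and Cre, both under the MMTV promoter, which is active mainly in mammary epithelium, and 1 Cre-dependent HA-tagged allele of rpl22. The 3 Het tumors were Lars fl/wt, with 1 Lars allele open to deletion by Cre, and the 3 wt tumors had Lars wt. The labels used here give no ages.

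The deposited tables give 1 value per gene and comparison, so levels per library and the spread between replicates are unknown. Depth per library is not given and could be read only indirectly, from mean counts. Nothing in the labels says whether replicates came from separate cultures, so p-values may measure technical spread only. Mean counts shared by many genes, each read as 1 read in 1 library, gave 27 levels in the polysome table, 9 more than the labelled 18 libraries. On that reading, relative depth ranged 14.6-fold over the 27 levels. At 9 of these levels the log2 change was 0. Which libraries entered the polysome contrast is thus uncertain. The same reading gave 6 levels in the RiboTag table, with relative size factors of 1.07 to 1.31 for 5 libraries and 0.44 for 1 on the positive side. Lars, the targeted gene, had log2 changes of -1.46 (mRNA) and -1.23 (footprints) on knockdown, from the authors' deposited table of efficiency. Its polysome value was -0.82 (SE 0.30) and its RiboTag value -0.75 (SE 0.43), both from the authors' deposited tables. For the polysome and RiboTag tables the numerator of the ratio is not stated, and values are described as positive or negative.

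The S100 genes lie close together. By RefSeq annotation of GRCm38.p6, 8 of the 10 lie on chromosome 3 between 90511034 and 90695721, a stretch of 185 kb whose 12 protein-coding genes are all S100 genes. S100a11 follows 2.82 Mb further along (93520496 to 93526288) and S100a10 28.8 kb after it (93555117 to 93564645). Their spans are short, from 964 bases for S100a8 (90669071 to 90670034) to 10349 bases for S100a13 (90514233 to 90524581). S100a13 overlaps S100a1 (90511034 to 90514330) by 98 bases on the opposite strand, and the library kit did not mark strand, so reads of that stretch cannot be assigned to 1 of them. A pseudogene of S100a11 is also annotated, which makes its count uncertain.

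RefSeq promoter windows of 300 bases, from 250 before to 50 after the annotated start, were found for 8 of the 10 genes, all but S100a10 and S100a14. The 4 shown are those of S100a8 and S100a9, the genes furthest to the positive side in tumors, and of S100a4 and S100a11, which had the lowest efficiency changes in 4T07. They are printed 5′ to 3′ on the gene's strand up to 30 bases after the start. Capitals mark a match to a promoter box spelled TATAAA or to the GC-rich box spelled GGGCGG, both searched on either strand.
S100a8: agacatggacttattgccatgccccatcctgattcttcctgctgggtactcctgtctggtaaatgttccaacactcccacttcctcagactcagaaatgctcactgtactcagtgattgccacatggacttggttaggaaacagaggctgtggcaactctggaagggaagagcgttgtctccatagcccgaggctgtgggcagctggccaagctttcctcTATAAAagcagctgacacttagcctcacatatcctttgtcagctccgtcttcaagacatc
S100a9: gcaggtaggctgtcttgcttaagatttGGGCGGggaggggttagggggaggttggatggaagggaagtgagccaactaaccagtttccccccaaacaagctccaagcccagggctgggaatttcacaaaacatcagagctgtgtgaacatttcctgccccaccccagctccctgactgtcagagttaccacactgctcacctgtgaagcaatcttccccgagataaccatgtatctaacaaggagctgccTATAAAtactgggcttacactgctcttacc
S100a4: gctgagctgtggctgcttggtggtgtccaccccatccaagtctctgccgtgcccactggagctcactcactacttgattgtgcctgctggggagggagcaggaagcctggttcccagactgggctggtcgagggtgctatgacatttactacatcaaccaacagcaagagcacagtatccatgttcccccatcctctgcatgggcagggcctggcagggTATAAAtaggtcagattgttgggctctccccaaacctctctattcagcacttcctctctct
S100a11: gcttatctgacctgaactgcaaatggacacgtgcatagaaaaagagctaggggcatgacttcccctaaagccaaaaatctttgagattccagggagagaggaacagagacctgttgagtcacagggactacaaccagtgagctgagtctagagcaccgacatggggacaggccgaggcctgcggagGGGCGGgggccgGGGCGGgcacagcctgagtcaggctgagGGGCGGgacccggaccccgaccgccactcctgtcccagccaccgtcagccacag
The S100a8 stretch is chr3:90668821-90669100 (plus strand), the S100a9 stretch chr3:90695692-90695971 (minus strand), the S100a4 stretch chr3:90603520-90603799 (plus strand) and the S100a11 stretch chr3:93520246-93520525 (plus strand), all in GRCm38.p6. TATAAA began 30 bases before the start of S100a8, 31 bases before that of S100a4 and at the annotated start of S100a9. It occurred in 3 of the 9 windows of members (S100a16 has 2), against 13.6% of 32851 windows of all genes, and within the 50 bases before the start on the gene's strand in 2.63% of them. GGGCGG occurred in 3 of the 9 windows, against 35.7% of all windows, with 3 matches 64, 52 and 24 bases before the start of S100a11. In S100a9 it lay 223 bases before the start, and the third was 1 of the windows of S100a16. No TATAAA match overlapped a GGGCGG match. The windows of S100a1 and S100a13, which are read in opposite directions, shared 204 bases and held neither run of letters.

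The polysome comparison concerns the place of each mRNA in low and high polysome fractions of 4T07 cells. Most S100 genes measured there stood well to the negative side: 6 of the 9 with an adjusted p passed (deposited DESeq2 adjusted p under 0.05), all 6 negative. Over all 13485 genes with an adjusted p, 17.5% passed with a negative and 10.4% with a positive value. The median over all 10 genes was -1.61, against -0.12 over all genes. Values of the 6 that passed lay close together, from -1.80 to -1.42, which is 2.68-fold to 3.49-fold.

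S100a11, which binds annexin A1, had the lowest of these in the authors' deposited table, at -1.80 (SE 0.31, adjusted p = 2.05e-07). S100a6, or calcyclin, had a value of -1.69 (SE 0.38) and an adjusted p of 0.000114 from the authors' deposited table, with a mean normalized count of 202154. S100a4, also called metastasin, had a value of -1.68 (SE 0.43) and an adjusted p of 0.000945 from the authors' deposited table, with a mean count of 123627. The differences among these 3 are smaller than any of their standard errors. S100a13, which takes part in the release of Fgf1, had a value of -1.65 (SE 0.34) and an adjusted p of 3.05e-05 from the authors' deposited table. S100a1, a regulator of calcium handling in muscle, had a value of -1.56 (SE 0.31) and an adjusted p of 1.57e-05 from the authors' deposited table. S100a10, the partner of annexin A2 whose loops have lost calcium binding, had a value of -1.42 (SE 0.33) and an adjusted p of 0.000185 from the authors' deposited table. The range over the 6 genes was thus about as wide as 1 standard error.

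The remaining members had wider errors. S100a8 had the lowest value of all 10, -1.89 (SE 0.92, 95% interval -3.70 to -0.08, adjusted p = 0.112), at a mean count of 702 in the authors' deposited table. S100a16, an epithelial member, stood at -1.12 (SE 0.47, adjusted p = 0.0614) at a mean count of 35.4 in the authors' deposited table. S100a14, its epithelial relative, was the 1 positive value, 0.17 (SE 0.88, 95% interval -1.54 to 1.89), at a mean count of 11.5 in the authors' deposited table. S100a9 had a mean count of 0.364 and no adjusted p in the authors' deposited table, so the 4T07 polysome libraries held S100a8 reads almost without reads of its calprotectin partner.

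**Figure D1:**
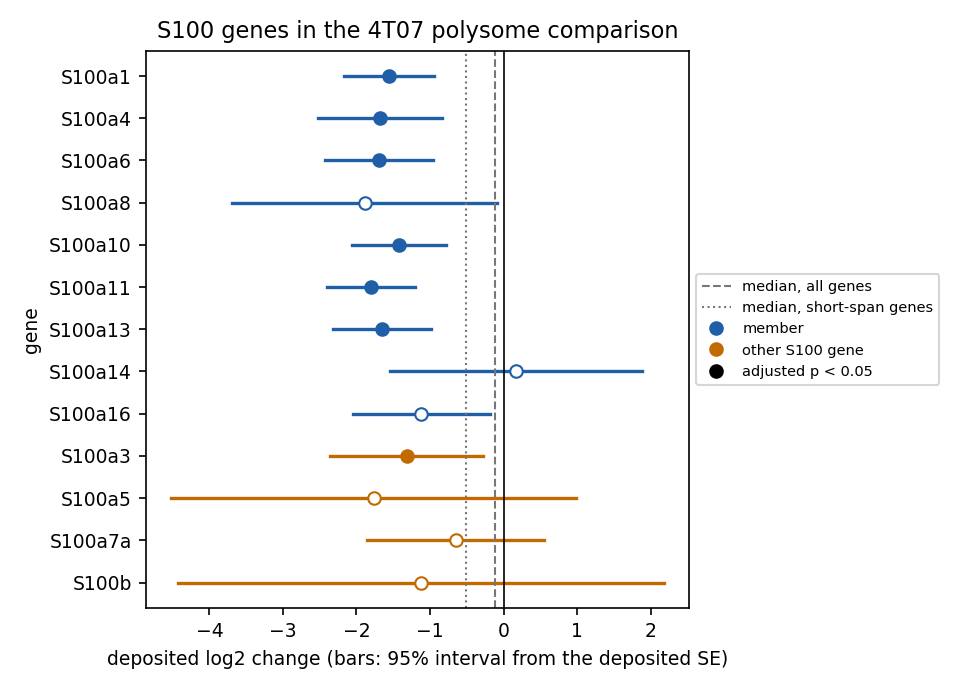
Deposited log2 change of the S100 genes with an adjusted p in the polysome table, with 95% intervals from the deposited SE; blue marks the members, orange other S100 genes, and filled points have an adjusted p under 0.05. The dashed line is the median of all genes (-0.12) and the dotted line that of genes with a short genomic span (-0.52); the 6 filled members lie between -1.80 and -1.42.

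Genes with a short genomic span, counted from start to end with introns, stood lower in general in this table. Span is not mRNA length, which was not analysed. Among 3034 protein-coding genes with a genomic span no longer than that of S100a13, 34.1% passed with a negative and 2.34% with a positive value, with a median of -0.52. Among the members, S100a8 (964 bases) stood at -1.89, S100a6 (1521 bases) at -1.69 and S100a4 (2276 bases) at -1.68 in the authors' deposited table. S100a14 (1989 bases) stood at 0.17 with an SE of 0.88 in the authors' deposited table. Those of longest span, S100a13 (10349 bases) and S100a10 (9529 bases), stood at -1.65 and -1.42 in the authors' deposited table. The part of span in the members' values was not tested. S100a11 and S100a10, the nearest measured protein-coding genes after the 185 kb stretch, from 2.82 Mb away, passed. The 2 nearest before the stretch did not pass. Chtop, 1507 bases before it, stood at 0.01 (SE 0.15) and Snapin at -0.65 (SE 0.30) with an adjusted p of 0.093 from the authors' deposited table.

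S100a3 was the 1 other gene of the family that passed. Of 9 others listed, 7 had a polysome value and 4 an adjusted p, with S100a3 at -1.32 (SE 0.53) with an adjusted p of 0.0455 from the authors' deposited table. S100a7a, a relative of psoriasin, stood at -0.65 (SE 0.61), S100a5 at -1.77 (SE 1.41) and the glial S100b at -1.13 (SE 1.69) in the authors' deposited table. S100a2, S100g and S100z had no adjusted p, at mean counts of 2.17, 0.669 and 0.00909 from the authors' deposited table.

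The partners of S100 proteins were spread over both sides. Over all genes with an adjusted p, 17.5% passed with a negative and 10.4% with a positive value, and no list was tested against these shares. Of 13 annexins and surface partners of S100a10, 2 passed on the negative and 1 on the positive side. Anxa2, which forms a tetramer with S100a10, stood at -0.67 and Anxa1, the partner of S100a11, at -0.60, while Anxa11 stood at 1.50 in the authors' deposited table. Of 11 intracellular targets with an adjusted p, 3 passed on the positive side, among them Myh10 at 0.90 and the liprin gene Ppfibp1 at 0.88, the latter a binding partner of S100a4, in the authors' deposited table. The 2 that passed on the negative side were Sugt1 at -0.80 and Tubb5 at -0.53 in the authors' deposited table. Cacybp, the S100a6 partner, stood at -0.55 (adjusted p = 0.0696) in the authors' deposited table. Of 8 S100 receptors with an adjusted p, 1 passed, the Tlr4 cofactor Ly96 at -1.07, while Tlr4 stood at 0.33 in the authors' deposited table. Among 16 other EF-hand genes with an adjusted p, 6 passed on the negative side, led by Cib1 at -1.01 and Pdcd6 at -0.88, and 1 on the positive side, Chp1 at 0.57, in the authors' deposited table. These 16 had a median of -0.39.

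Translational efficiency (footprints per mRNA) was compared between Lars knockdown and control 4T07 cells, and this table states the direction. Footprints of all 7 S100 genes measured were below 0 in the knockdown, though S100a1, at -0.01, lay mid-distribution with 50.5% of genes lower. The median log2 change of the 7 was -0.49 against -0.01 over all genes. Their mRNA did not share that side, with 4 above and 3 below 0 and a median of 0.07. None of the 7 passed for efficiency (xtail adjusted p under 0.05), 1 had an unadjusted p under 0.05, and over all 9833 genes 0.0508% passed on the negative and 0% on the positive side. The median efficiency change was -0.42 against -0.01 over all genes. Genes of short genomic span stood on the negative side here too, with a median efficiency change of -0.14 and 1426 of 2174 negative. Footprints of these short-span genes had a median of -0.09 and 1333 of 2174 negative, and the part of span was not tested.

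S100a4 showed the widest split between mRNA and footprints. Its mRNA stood at 0.50, 1.41-fold above control, and its footprints at -0.49, 1.41-fold below it, in the authors' deposited table. The efficiency change of S100a4 was -0.96 (unadjusted p = 0.000146, xtail adjusted p = 0.16), the 9th smallest p of 9833 genes in the authors' deposited table. For S100a11 the authors' deposited table gives mRNA at 0.51, footprints at -0.15 and efficiency at -0.66 (adjusted p = 0.79). For S100a6 the authors' deposited table gives mRNA at -0.04, footprints at -0.68 and efficiency at -0.45 (adjusted p = 0.912). For S100a10 the authors' deposited table gives mRNA at 0.10, footprints at -0.36 and efficiency at -0.42 (adjusted p = 0.829). These 4 are the members with efficiency values of -0.42 or lower. Of the 7 members, 4 had mRNA above 0 and footprints below 0, as against 23.7% of all genes. They were S100a4, S100a10, S100a11 and S100a1, and S100a1 was near 0 in both (0.07 and -0.01).

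S100a8 and S100a13 were on the low side in mRNA and footprints alike. S100a8 had -0.76 for mRNA and -0.73 for footprints, with efficiency at 0.03, in the authors' deposited table. S100a13 stood at -0.72 in mRNA and -0.73 in footprints, with efficiency at -0.01, in the authors' deposited table. In mRNA, 1.24% of genes lay lower than S100a8 and 1.52% lower than S100a13, and the table gives no error or test for mRNA or footprints. S100a1 was near 0 in mRNA (0.07), footprints (-0.01) and efficiency (-0.08) in the authors' deposited table, although it shares a start region with S100a13.

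**Figure D2:**
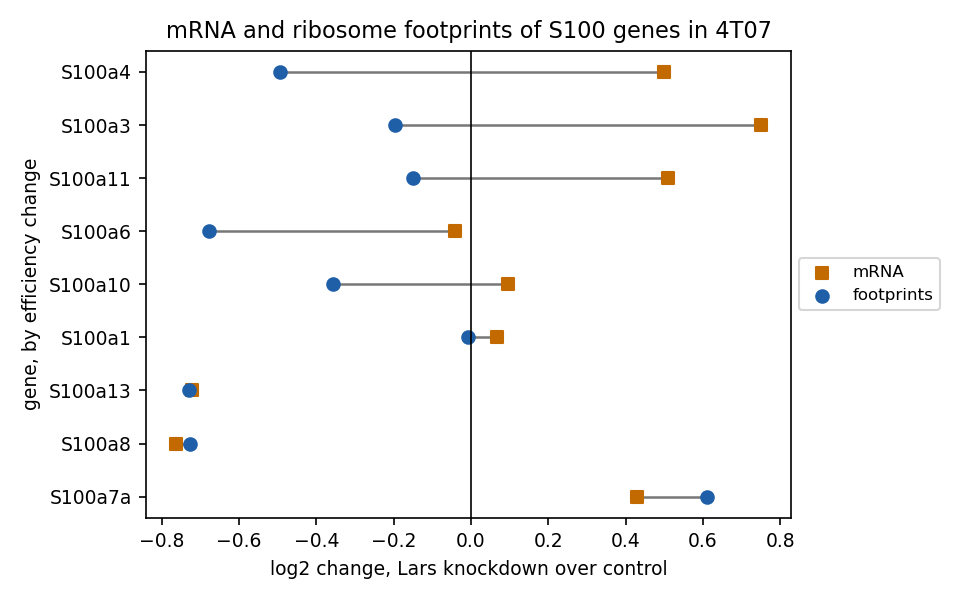
Log2 change in mRNA (orange squares) and ribosome footprints (blue circles) of the S100 genes in the efficiency table, Lars knockdown over control, ordered by efficiency change and drawn without errors. Footprints lie left of mRNA for S100a4 (-0.49 against 0.50), S100a11, S100a6 and S100a10, and the pairs of S100a13 and S100a8 coincide near -0.7.

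The call for S100a4 depended on the xtail estimate. With the first of its estimates, from the fold changes of mRNA and footprints, S100a4 stood at -0.99 and S100a11 at -0.66 in the authors' deposited table. Their deposited xtail p-values, adjusted here by Benjamini-Hochberg over all genes, gave adjusted p = 5.24e-05 and adjusted p = 0.0414. By that estimate 2 of 7 members passed, both negative, and over all genes 2.47% passed on the negative and 2.73% on the positive side. The second estimate, from the ratios within each condition, called neither, with a Benjamini-Hochberg adjusted xtail p of 0.103 for S100a4. How many footprint libraries stand behind these p-values is unknown here.

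The ratio itself was low for several S100 genes before any knockdown. In control cells the log2 ratio of footprints to mRNA was -2.68 for S100a6, -2.39 for S100a4, -1.92 for S100a11 and -1.41 for S100a10 in the authors' deposited table, against a median of 0.04 over all genes. These values placed S100a6, S100a4 and S100a11 in the lowest 10% of the 9833 genes, at percentiles 2.67, 3.88 and 6.94, and S100a10 at percentile 12.9. After knockdown S100a4 stood at -3.39 and S100a6 at -3.32, at percentiles 1.18 and 1.27, followed by S100a11 at -2.58 and S100a10 at -1.86 in the authors' deposited table. S100a4 and S100a6 thus changed places in that order, and the error of that difference is unknown. S100a1 at -0.48 and S100a13 at -0.13 lay in the middle of the distribution in control cells in the authors' deposited table. S100a8 lay at the other end, at 1.59 in control and 1.63 in knockdown cells, percentiles 91.6 and 94.2, in the authors' deposited table.

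**Figure D3:**
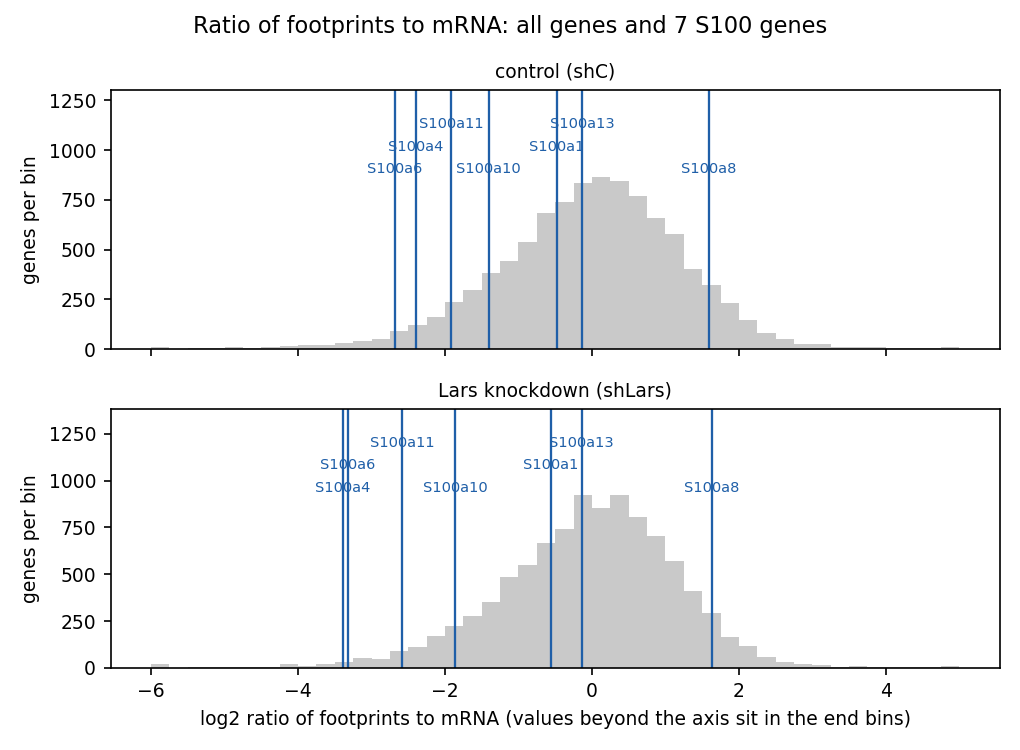
Histograms of the log2 ratio of footprints to mRNA over 9833 genes in control cells (top) and Lars knockdown cells (bottom), with vertical lines at the 7 S100 genes measured. S100a6, S100a4, S100a11 and S100a10 lie on the low side in both, and S100a8 on the high side at 1.59 and 1.63.

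Outside the members, S100a3 resembled S100a4 in this table, with mRNA at 0.75, footprints at -0.20 and efficiency at -0.94 (xtail adjusted p = 0.83) in the authors' deposited table. S100a7a stood on the other side, with 0.43 for mRNA, 0.61 for footprints and 0.18 for efficiency from the authors' deposited table. No gene of the annexin, receptor, target and EF-hand lists passed for efficiency (xtail), out of 13, 7, 9 and 15 measured, and 1 target had an unadjusted p under 0.05. Their median efficiency changes were -0.12, -0.05, -0.02 and -0.08. For Anxa2 the authors' deposited table gives mRNA at 0.04, footprints at -0.29 and efficiency at -0.31.

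RiboTag profiling isolates mRNA on tagged ribosomes from cells that have had Cre, and compared Lars Het with Lars wt tumors. In tumors S100a9 and S100a8 had the highest values of the 10 members, on the positive side, and the interval of S100a8 overlapped that of S100a4. Neither passed after adjustment: 0 of 10 members, and 0% of all 23487 genes on either side, had a DESeq2 adjusted p under 0.05. At an unadjusted p under 0.05 were 2 of the 10, both positive, against shares of 0.869% (positive side) and 0.324% (negative side) over all genes. These shares include genes with mean counts down to 0.127, while the lowest among the members was 259, so the sets are not matched for count. The median over the 10 members was 0.41, against -0.01 over all genes, and 8 were positive. Each library pools the RNA pulled down from its sample. More cells of a type, more mRNA per cell and mRNA from cells without the tag thus cannot be told apart.

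S100a9 stood at 3.25 (SE 0.79, 95% interval 1.70 to 4.80, unadjusted p = 4.11e-05, DESeq2 adjusted p = 0.209), a 9.49-fold difference, at a mean count of 442 in the authors' deposited table. It had the 3rd smallest p of all genes, and 0.37% of genes had a higher value. S100a8 stood at 1.73 (SE 0.60, 95% interval 0.55 to 2.91, unadjusted p = 0.00416, DESeq2 adjusted p = 1), a 3.32-fold difference, at a mean count of 1149 in the authors' deposited table. The interval of S100a8 overlaps that of S100a9, and the difference between the pair was not tested, since the table gives no covariance.

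The other 8 members had lower values. S100a4 stood at 1.00 (SE 0.82) and S100a6 at 0.83 (SE 0.63) in the authors' deposited table, with mean counts of 259 and 30966. S100a13 stood at 0.48 (SE 0.59) and its neighbour S100a1 at 0.34 (SE 0.49) in the authors' deposited table. The epithelial genes S100a16 and S100a14 stood at 0.26 (SE 0.52) and -0.24 (SE 0.86) in the authors' deposited table. S100a10 stood at 0.16 (SE 0.44), and S100a11 had the lowest value, -0.51 (SE 0.48), in the authors' deposited table. The unadjusted p of these 8 was 0.186 or higher, and the 95% interval of S100a4 runs from -0.61 to 2.60. S100a14 and S100a16, with mean counts of 11.5 and 35.4 in the 4T07 polysome table, had 1291 and 13758 in tumors in the authors' deposited tables, which were normalized separately.

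**Figure D4:**
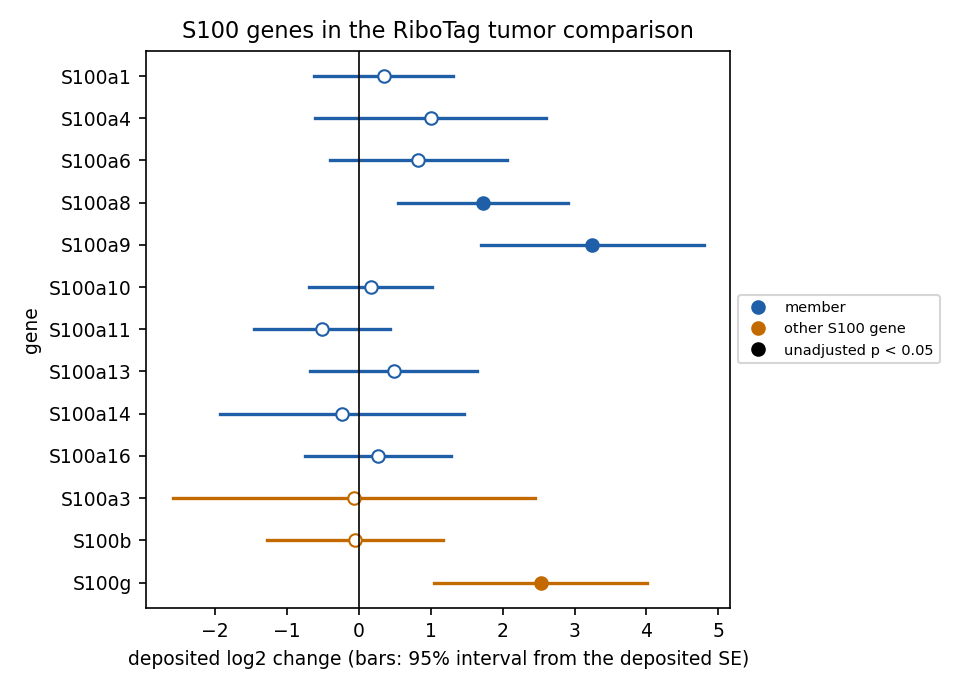
Deposited RiboTag log2 change of S100 genes with a mean count of at least 10, with 95% intervals from the deposited SE; blue marks members, orange other S100 genes, and filled points have an unadjusted p under 0.05. S100a9 (3.25), S100a8 (1.73) and S100g (2.53) lie clear of 0, and the other 8 members lie between -0.51 and 1.00.

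Among 6 other S100 genes with a RiboTag value, S100g, or calbindin-D9k, which carries calcium through epithelial cells, stood at 2.53 (SE 0.76, unadjusted p = 0.000828, DESeq2 adjusted p = 1) at a mean count of 74.5 in the authors' deposited table. S100b stood at -0.05 (SE 0.62) at a mean count of 920, and S100a3 at -0.07 (SE 1.29) at a mean count of 10.1, in the authors' deposited table. S100a2, S100a7a and S100z had mean counts from 1.31 to 4.29 in the authors' deposited table, with SE of at least 1.65.

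Markers of neutrophils, which store S100a8 and S100a9, were mostly positive too, although the tag is switched on by MMTV-Cre and the pull-down of tagged ribosomes is meant to leave out mRNA of other cells. Of 18 markers, 15 were positive and 4 had an unadjusted p under 0.05, all positive, with a median of 1.47. The collagenase Mmp8 stood at 4.48, Mmp9 at 2.30 and Retnlg at 2.35 in the authors' deposited table, at mean counts of 24.8, 24.4 and 34.8. The fourth, Ltf, at 1.12 in the authors' deposited table, is also made by mammary epithelium. The 3 negative values were those of Cd177 (-0.76, mean count 469), Elane (-0.63, mean count 1.81) and Lcn2 (-0.59, mean count 164190) in the authors' deposited table. Prtn3 stood at 0.14 (SE 0.79) with a mean count of 620 in the authors' deposited table. Lcn2 was also read in the 4T07 carcinoma cells, with a mean count of 519 in the authors' deposited polysome table. Of the defining neutrophil genes, Ly6g had a mean count of 1.31, Cxcr2 8.09 and Csf3r 31.6 in the authors' deposited table. Across the list 7 of 18 markers had a mean count under 10, and levels per group are unknown. Their part in the S100a8 and S100a9 values was not tested.

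Basal epithelial markers lay on the positive side as well. All 9 were positive and 6 had an unadjusted p under 0.05, with a median of 1.41, led by Trp63 at 1.55 and Krt14 at 1.57 in the authors' deposited table. Of 11 macrophage markers measured, all were positive and 1 had an unadjusted p under 0.05, with a median of 0.49 and Msr1 at 1.34 in the authors' deposited table. Of 9 keratinocyte markers measured, another cell type that can make S100a8 and S100a9, 0 had an unadjusted p under 0.05 (DESeq2), with 8 positive and a median of 0.53. Luminal markers had a median of 0.25 over 14 genes, with Krt19 at 0.99 (unadjusted p = 0.0452) in the authors' deposited table. Medians were 0.90 for 8 adipocyte, 0.48 for 10 fibroblast, 0.28 for 12 lymphocyte and -0.11 for 8 endothelial markers. The relative size factor of 0.44 also belonged to a library on the positive side. The part of any of these in the S100 values was not tested.

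**Figure D5:**
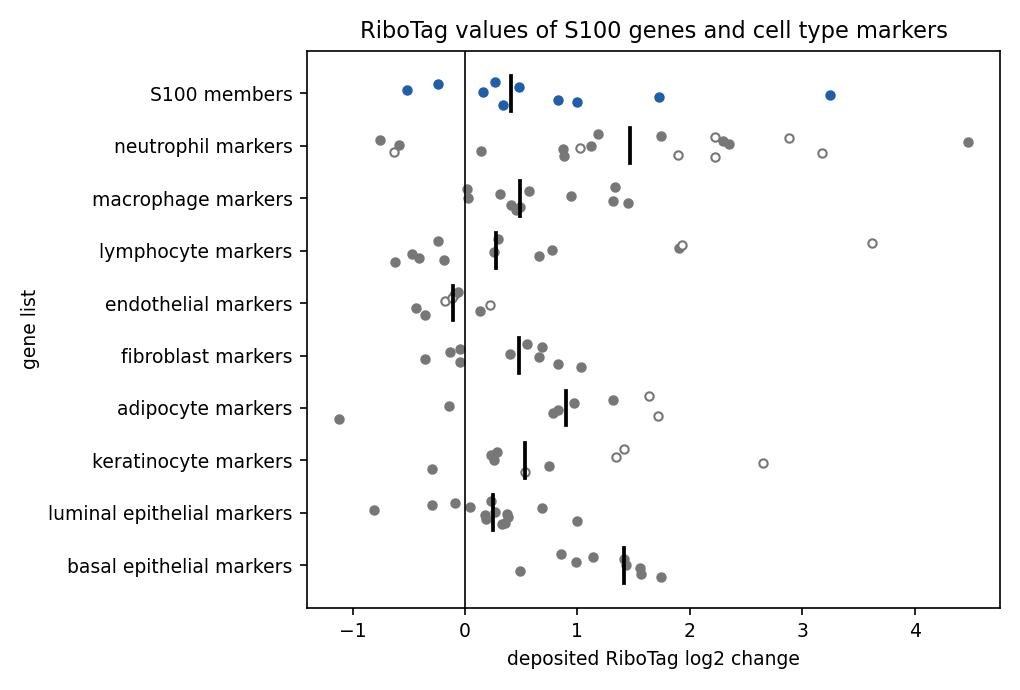
Deposited RiboTag log2 change of each S100 member (blue) and each cell type marker (gray) by list; open points have a mean count under 10 and black bars are list medians. S100a8 and S100a9 lie at 1.73 and 3.25, and the neutrophil and basal lists have medians of 1.47 and 1.41.

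Epithelial markers were read in both materials. In tumors the luminal genes Epcam, Krt8 and Elf5 had mean counts of 37552, 21864 and 15336 in the authors' deposited table. The macrophage genes Lyz2, C1qa and Csf1r had mean counts of 4513, 3391 and 569 in tumors in the authors' deposited table. In 4T07 polysome libraries Krt8 and Krt18 had 8383 and 4113 and Epcam 16.4, while Csf1r, Cd79b and Cdh5 had 0.712, 0.162 and 0.64 in the authors' deposited table. Csf3r and Ngp, of neutrophils, had 0.0339 and 0.0378 there in the authors' deposited table, but Lcn2 and Mmp9 had 519 and 208, also from the authors' deposited table. Some markers of other leukocytes were read in 4T07 as well, with mean counts of 141 for Cd68, 52.4 for Mrc1 and 97.9 for Cd3g in the authors' deposited table.

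S100 receptors and partners lay on both sides of 0 in tumors, with medians of 0.41 over 10 receptors and 0.33 over 13 annexins and partners. Of the annexin list, whose values ran from -0.87 (Anxa11) to 1.10 (Plat), 10 of 13 were positive and 1 had an unadjusted p under 0.05, the large S100a10 and annexin A2 partner Ahnak at 1.03 (SE 0.46) with an unadjusted p of 0.0255 from the authors' deposited table. Of 10 receptors 0 had an unadjusted p under 0.05 (DESeq2), with Tlr4 at 0.43 and Ager at 0.56 in the authors' deposited table, the latter at a mean count of 9.62. Of 16 targets and 19 other EF-hand genes 0 had an unadjusted p under 0.05 (DESeq2), with medians of -0.07 and -0.14.

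Genes with values most like those of single members were found by Euclidean distance over the deposited log2 changes in polysome, mRNA, footprints and RiboTag, among genes with mean counts of at least 50 in both count-based tables. Closest to S100a4 among 9028 genes with all 4 values were Exoc3l4 (distance 0.33), Crip1 (0.40) and 2200002D01Rik (0.55). Closest to S100a6 were Crip1 (0.28), Rpl36al (0.48) and Wfdc2 (0.56). Crip1, a small LIM-domain protein, was thus on both lists, and stood at -1.79, 0.15, -0.64 and 1.00 for polysome, mRNA, footprints and RiboTag in the authors' deposited tables. S100a9 has polysome and RiboTag values alone, and its nearest of 9630 genes, Slc25a48 (0.97), BC002163 (1.34) and Klk10 (1.40), lay further off. As its polysome value rests on almost no reads, that likeness says little beyond the RiboTag value.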

How the data were processed

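Of 5 deposited tables, 3 were used; the tRNA tables hold no S100 gene. Polysome and RiboTag tables hold the authors' DESeq2 results, per the file headers. Their mean normalized count (a signal) is 1 value per gene from the authors' model. The deposited log2 fold changes and standard errors are on the log2 scale, the deposited Wald statistic is a score, and p-values come from the authors' Wald test. Efficiency values were deposited by the authors from xtail, as log2 changes with p-values. There, footprint minus mRNA change equalled the shLars minus the shC ratio within 7.33e-05, which sets the direction. Named without a role in the submitters' processing notes are STAR 2.5.2a, Bowtie2 2.4.1, HTSeq, featureCounts, SAMtools and mm10; libraries other than footprints were made with TruSeq v2 per the labels.

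From these files, 18 efficiency rows with symbols turned into dates and 8 RiboTag rows with a repeated or missing symbol were left out. A gene passed at a deposited adjusted p under 0.05. The 95% intervals are normal intervals from the deposited SE. Lists were described by counts and medians, with up to 2 genes per side named by smallest p. Adjusted p-values for alternatives used Benjamini-Hochberg, tested on simulated data (pandas 2.3.3 and numpy 2.4.6 under Python 3.11.15; plots with matplotlib 3.10.9). Members and lists were chosen with earlier results of these data known. Protein length, leucine share and identity were planned and not analysed here; genomic span took the place of protein length after the data were seen. Promoter sequences are from RefSeq GRCm38.p6.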

Additional observations from a re-analysis of the deposited data

How the results depend on the processing

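With the tables alone, neither leaving out a replicate nor a refit could be run. No paired analysis was possible because the tables hold no value per library. Of the alternatives for counts and medians of the 10 S100 genes, 32 stayed within 1.5-fold (counts) or 1 SD over the members (medians), and 1 moved: with the first xtail estimate 2 members passed on the negative side for efficiency, against 0. Most of the 32 were counts of 0 that stayed at 0, and some could not have changed. A minimum log2 change cannot raise a count of 0. A minimum mean count left the RiboTag median as it was, since all 10 members were kept (lowest mean count 259). The 32 are thus weak evidence of robustness. The 6 polysome calls stayed at 6 with p adjusted over all rows, with a mean count of at least 10 and with a log2 change of at least 1, and became 7 at a threshold of 0.1. The polysome median ran from -1.68 to -1.49 over its alternatives, and the RiboTag median from 0.41 to 0.42. For single genes, 75 alternatives kept direction and side of the threshold, 2 newly passed (S100a4 and S100a11, first xtail estimate), and the efficiency change of S100a13 turned from -0.01 to 0.0073 after subtracting the median of all genes. Adjusting p again left each log2 change as it was, so direction could not turn there. Subtracting the median left each p as it was, so the side of the threshold could not change there. Depth per library is not given and was read only from shared mean counts. S100a9, S100a14 and S100a16 had mean counts of 0.364, 11.5 and 35.4 in the polysome table. The cause of these shifts was not tested.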
